A study of Mus musculus with 12 samples.

Results

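Rod photoreceptors given a short hairpin RNA (shRNA) that targets Csnk2a1 were set against rods that carried a control shRNA. A hairpin of this kind is processed in the cell into a small RNA that directs the breakdown of a matching messenger RNA. The comparison covers 6 of the 12 libraries of the series, titled shRNA mCsnk2a1 1 to 3 and shRNA Control 1 to 3, and all 52962 genes of the deposited gene table. Of these genes, 20267 had enough counts to be tested. All 6 libraries came from electroporated areas of mouse retinas that were taken on postnatal day 8 and dissociated with papain. Rods positive for GFP, the green fluorescent marker, were chosen singly under a micromanipulator, at 50 to 100 cells for the total RNA of a library. The other 6 libraries of the series were rods given the vector pcDNA4c with mouse Csnk2a1 or pcDNA4c as its control, and their levels are given where they bear on a value. The hairpin sequences, the promoter that drove them, the mouse strain and the target of the control hairpin are not among the details that the sources used here give. The labels call the 3 RNA samples of a group independent and do not say whether they came from different animals. A p-value below therefore sets a difference against the spread between RNA samples, which may not be that between animals. In the edgeR test that spread was estimated from all 12 libraries. Only cells that looked intact were collected.

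Protein kinase CK2 is a serine/threonine kinase built from a pair of catalytic subunits, alpha or alpha prime, and a pair of regulatory beta subunits. Csnk2a1 encodes alpha, Csnk2a2 alpha prime and Csnk2b beta. In rods, the transcription factor NRL drives rod identity together with CRX, a homeodomain factor shared with cones, and the series title names CK2 as a modulator of NRL-driven expression. Rods see light through a cascade: the light receptor activates the G protein transducin, transducin activates the phosphodiesterase PDE6, cyclic GMP falls and the cyclic GMP-gated channel closes. The response is ended by a receptor kinase, arrestin and the RGS9 complex, and calcium feedback acts through recoverin and the guanylate cyclase activators. Many genes of this cascade are turned on during the postnatal week in which these cells were collected.

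The libraries were shallow and varied widely. The summed estimated counts were 2840540 to 3567250 in shRNA mCsnk2a1 and 1609100 to 1856930 in shRNA Control, so the depths of the 2 groups did not overlap (two-sided exact permutation p = 0.1, the smallest that 3 against 3 allows). At the lowest depth, 16914 to 20024 genes would have a count in shRNA mCsnk2a1 and 20352 to 22085 in shRNA Control. The 10 most abundant genes held 20.9% to 22.2% and 17.7% to 18.2% of the counts. Between libraries of a group the level of a typical gene was uneven: of the tested genes with a count, 22.7% in shRNA mCsnk2a1 and 16.2% in shRNA Control had over 90% of the summed level of the group in 1 library, against 1.8% and 0.9% among the 1000 most abundant. In bulk samples, fewer cells of a type and less RNA per cell cannot be told apart.

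Csnk2a1, the gene that the hairpin targets (ENSMUSG00000074698, chromosome 2 of mm10), was measured at 12.0, 22.2 and 36.0 CPM (read counts relative to the library total, after trimmed-mean scaling between libraries) in shRNA mCsnk2a1 and at 66.9, 57.2 and 8.51 CPM in shRNA Control. Control libraries 1 and 2 lay above all knockdown libraries, and control library 3 lay below them, so the groups overlapped. The log2 difference was -0.92 with a standard error (SE) of 0.88 (edgeR quasi-likelihood test, Benjamini-Hochberg adjusted p = 0.905), and the exact permutation test gave p = 0.4. Per length, Csnk2a1 stood at 2.05, 4.08 and 6.47 TPM (a length-adjusted share of all transcripts) against 15.8, 13.7 and 1.86 TPM, in the same order of libraries. The full-length coding transcript Csnk2a1-201 stood at 1.13, 1.49 and 6.36 TPM in shRNA mCsnk2a1 and 2.21, 4.61 and 1.52 TPM in shRNA Control. A reduction of Csnk2a1 RNA was not shown by these libraries, and "knockdown" below names the hairpin and not its effect.

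**Figure D1:**
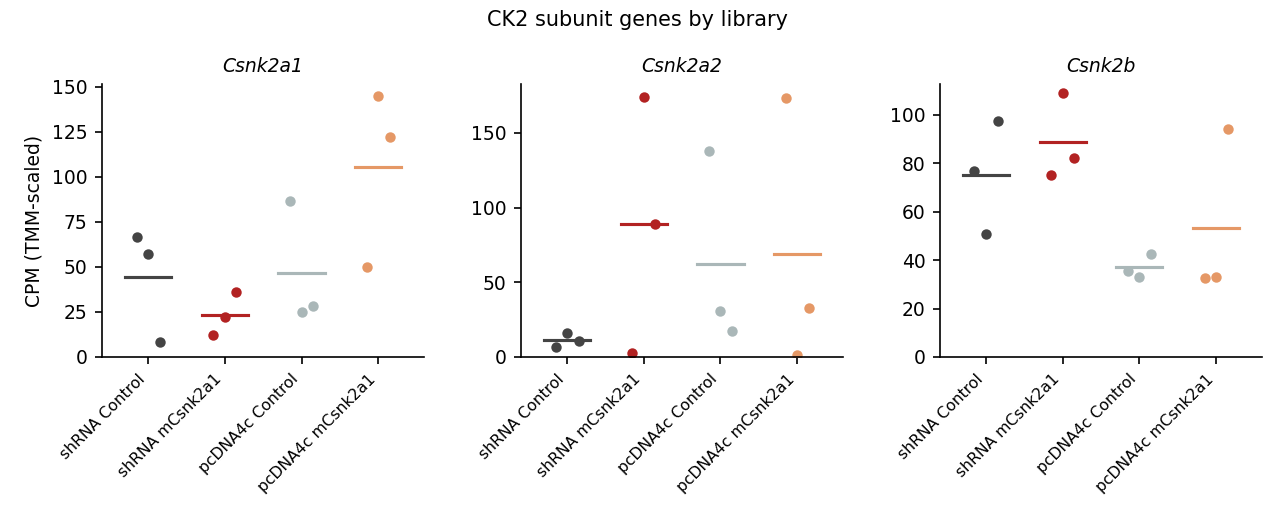
CPM of Csnk2a1, Csnk2a2 and Csnk2b (y axis, linear) in the 4 groups of 3 libraries (x axis); points are libraries and bars are group means. For Csnk2a1, control library 3 at 8.51 CPM lies below the 3 knockdown libraries, and for Csnk2a2 knockdown library 1 at 3.00 CPM lies below the control libraries.

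The other CK2 subunits overlapped between the groups too. Csnk2a2 was measured at 3.00, 174 and 89.1 CPM with the Csnk2a1 hairpin and at 6.74, 16.1 and 10.8 CPM with the control hairpin, a log2 difference of 2.98 (SE 1.34, adjusted p = 0.598). Knockdown libraries 2 and 3 were far above every control library and knockdown library 1 was below them. Csnk2b stood at 75.1, 109 and 82.0 CPM against 76.7, 50.6 and 97.6 CPM, a difference of 0.24 (SE 0.69).

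Over the 20267 genes tested, 0 passed an adjusted p of 0.05 in edgeR (0%), and 1688 had an unadjusted p under 0.05, of which 654 were higher (3.23% of the genes tested) and 1034 lower (5.1%) in knockdown rods. Because no gene passed, the values that follow are levels and differences, and "higher" or "lower" says only where the libraries lay. As a second measure, the 3 libraries of a group all lay above the 3 of the other for 1137 genes in the higher direction (5.61%) and for 1353 in the lower direction (6.68%). Among the 1000 genes with the highest mean level those shares were 17.8% and 6.3%, so a list of abundant genes has to be read against these. Other lists below are to be read beside 5.61% and 6.68%, and in TPM beside 3.20% upward and 10.2% downward. DESeq2 called 184 of the 16586 genes to which it gave an adjusted p (1.11%), edgeR without a filter on low counts called 93 genes (0.237%) and edgeR with a replicate block called 20 genes (0.0987%). The median log2 difference was -0.03 over all genes tested.

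The genes of the rod light response lay higher together in knockdown rods. Of 21 listed genes, 20 could be tested, and Guca1b was too low. All 20 had a higher fitted level with the Csnk2a1 hairpin, with a median log2 difference of 1.07 (19 of 20 with either other CPM scaling and 18 in TPM). In 12 of the 20 the 3 knockdown libraries lay above the 3 control libraries, in 0 below them, and 11 had an unadjusted p under 0.05. Of the 20, 15 were among the 1000 most abundant genes, and 10 of those 15 were separated, beside the 17.8% of that class. None passed the adjusted threshold in the edgeR test. In 6 of the 20 (Gnat1, Gngt1, Sag, Rcvrn, Guca1a and Slc24a1) the 3 knockdown libraries lay above all 9 other libraries of the series, against 0.863% of all genes tested and 3.2% of the 1000 most abundant.

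Promoter sequences are shown for 4 of these genes because CRX and NRL, the factors that switch on rod genes, recognise short motifs there. The 250 bases before the RefSeq start (GRCm38.p6) were searched on both strands for the CRX core TAATCC and for TGCTGAC, the core of the NRL response element. Of the 21 genes 14 had an entry in the promoter table, and 8 of the 14 (57.1%) held the CRX core, against 6.25% of all 32851 promoters of that length. The NRL core was found in 1 of the 14 (7.14%), Pde6b, against 3.81% of all promoters. The genes were chosen as rod genes, so the CRX share describes the list and not the hairpin. A match is a run of letters and not a measured binding site. In the sequences, written 5′ to 3′ on the strand of the gene, capitals mark the motif, which is read as GGATTA where it lies on the opposite strand.
Sag (rod arrestin), chr1:87803430-87803679, plus strand, CRX core from 87 bases before the start: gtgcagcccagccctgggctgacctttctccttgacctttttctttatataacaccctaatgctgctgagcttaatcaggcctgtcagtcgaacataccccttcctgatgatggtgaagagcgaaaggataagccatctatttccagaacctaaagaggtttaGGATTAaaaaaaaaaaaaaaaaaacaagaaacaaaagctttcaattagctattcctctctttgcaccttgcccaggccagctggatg
Gngt1 (transducin gamma), chr6:3993758-3994007, plus strand, CRX core from 44 bases before the start: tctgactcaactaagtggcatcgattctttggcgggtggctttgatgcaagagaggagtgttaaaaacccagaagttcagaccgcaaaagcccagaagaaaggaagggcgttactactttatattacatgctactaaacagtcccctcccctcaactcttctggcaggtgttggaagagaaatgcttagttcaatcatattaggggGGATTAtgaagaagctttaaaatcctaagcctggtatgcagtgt
Gucy2e (guanylate cyclase), chr11:69237023-69237272, minus strand, CRX core from 42 bases before the start: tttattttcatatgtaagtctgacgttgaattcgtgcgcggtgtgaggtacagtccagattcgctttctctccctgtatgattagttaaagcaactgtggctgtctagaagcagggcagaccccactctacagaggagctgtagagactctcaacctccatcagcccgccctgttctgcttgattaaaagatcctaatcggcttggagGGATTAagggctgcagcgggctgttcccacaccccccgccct
Pde6b (phosphodiesterase beta), chr5:108388123-108388372, plus strand, NRL core from 8 bases before the start: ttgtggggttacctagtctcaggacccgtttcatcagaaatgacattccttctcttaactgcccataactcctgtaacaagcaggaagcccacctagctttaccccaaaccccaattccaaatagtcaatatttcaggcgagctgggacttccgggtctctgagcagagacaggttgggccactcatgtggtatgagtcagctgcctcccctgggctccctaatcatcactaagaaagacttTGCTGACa
Sag, Gngt1 and Gucy2e, with the CRX core, and Pde6b, with the NRL core and no CRX core, all had higher means in knockdown rods. Pde6b was the only one of the 4 whose libraries overlapped in CPM, and in TPM Gucy2e overlapped too. The other genes with an entry did not divide in this way. In CPM, Cnga1 and Guca1a held the CRX core and did not overlap, and Cngb1, Gnb5 and Gucy2f held it and overlapped. Slc24a1, Pdc and Gnb1 held neither core and did not overlap in CPM, and Grk1 and Rgs9 held neither and overlapped.

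Near the top of the cascade stands transducin. Gnat1, its rod alpha subunit (ENSMUSG00000034837, chromosome 9), was 287, 303 and 373 CPM in knockdown and 91.3, 113 and 86.8 CPM in control rods, a log2 difference of 1.73 (SE 0.49). The 2 groups were narrow and far apart, and the other 6 libraries, at 43.8 to 154 CPM, were all below the knockdown libraries. Gngt1, the gamma subunit (ENSMUSG00000029663, chromosome 6), was 1302, 1001 and 1432 CPM against 568, 489 and 587 CPM, a difference of 1.18 (SE 0.33). Gnb1, the beta subunit, which is made in many cell types, was 880, 1387 and 1418 CPM against 877, 602 and 508 CPM (0.89, SE 0.35), with knockdown library 1 and control library 1 nearly level.

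Among the effector and channel genes, Pde6g and Cnga1 were separated in CPM and Pde6a, Pde6b and Cngb1 overlapped. Pde6a and Pde6b, the catalytic subunits of PDE6, had log2 differences of 1.43 (SE 0.59) and 0.76 (SE 0.39). Pde6a was 104, 292 and 397 CPM against 95.4, 142 and 56.7 CPM, so knockdown library 1 sat among the controls. Pde6g, the inhibitory subunit, was 441, 351 and 386 CPM against 332, 131 and 227 CPM and did not overlap (0.77, SE 0.44). Cnga1, the channel subunit that binds cyclic GMP and forms the pore, was 163, 292 and 215 CPM against 133, 82.8 and 137 CPM (0.92, SE 0.47). Cngb1, its modulatory partner, overlapped (0.53, SE 0.44), and control library 3, at 590 CPM, lay within the knockdown range of 513 to 644 CPM.

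Among the genes that end the response, Sag, the arrestin that binds the phosphorylated light receptor (ENSMUSG00000056055, chromosome 1), was 3453, 3620 and 3032 CPM in knockdown and 1931, 1707 and 1281 CPM in control rods, a log2 difference of 1.04 (SE 0.29). All knockdown libraries were above the 9 other libraries of the series, and without the filter on low counts Sag passed (edgeR adjusted p = 0.00748). Grk1, the kinase that prepares the light receptor for arrestin, was 309, 602 and 302 CPM against 391, 235 and 323 CPM, and only knockdown library 2 was high (0.35, SE 0.45). The RGS9 complex speeds the shutdown of transducin, and its members differed among themselves. Gnb5, the beta5 subunit, was 51.5, 202 and 193 CPM against 30.6, 54.2 and 28.4 CPM (1.98, SE 0.70), with knockdown library 1 just below control library 2. Rgs9, the GTPase-activating protein, had a difference of 0.74 (SE 0.45) and Rgs9bp, its membrane anchor, of 0.04 (SE 0.62), both with overlapping groups. Pdc, phosducin, which binds transducin beta and gamma, was 2053, 2080 and 1987 CPM against 1425, 1520 and 1192 CPM, the tightest knockdown group of the list (0.57, SE 0.26).

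The calcium arm of the cascade held the largest differences. Slc24a1, the sodium/calcium-potassium exchanger of the rod outer segment (ENSMUSG00000034452, chromosome 9), was 94.3, 146 and 147 CPM in knockdown and 17.6, 25.0 and 9.08 CPM in control rods, 2.90 higher on the log2 scale (SE 0.77, adjusted p = 0.598 in edgeR). DESeq2 called it (adjusted p = 0.00824), and its levels in the 6 pcDNA4c libraries were 21.1 to 73.2 CPM. Rcvrn, recoverin, the calcium sensor that restrains the receptor kinase, was 264, 373 and 460 CPM against 165, 169 and 155 CPM (1.16, SE 0.48). Gucy2e and Gucy2f, the guanylate cyclases that restore cyclic GMP, had differences of 1.09 (SE 0.51) and 1.14 (SE 0.79), without overlap for Gucy2e and with overlap for Gucy2f. Guca1a, a guanylate cyclase activator found in rods and cones, was 20.7, 12.6 and 27.8 CPM against 2.07, 0 and 0 CPM, which is a few reads in the control rods.

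**Figure D2:**
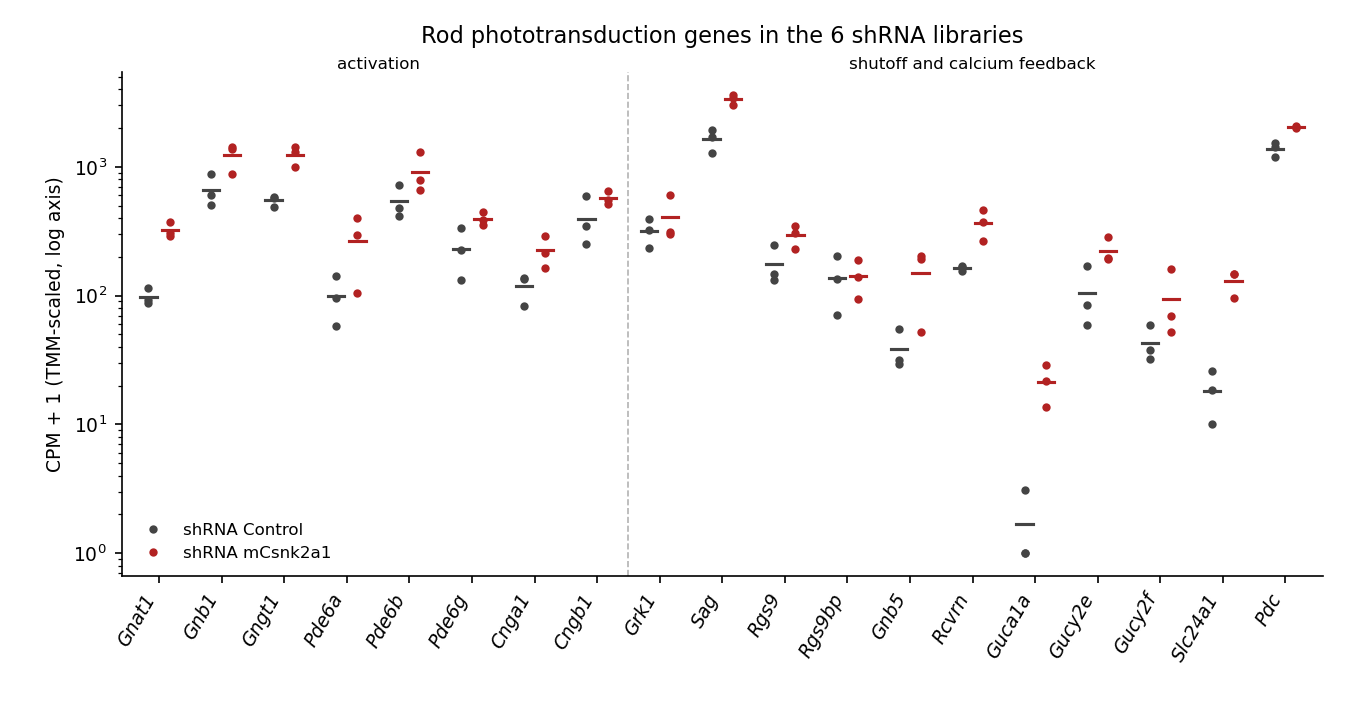
CPM + 1 on a log axis for 19 of the tested rod phototransduction genes (x axis) in each library of the 2 shRNA groups; points are libraries and bars are group means. In Gnat1, Sag, Slc24a1 and 8 others every knockdown point lies above every control point, and in Grk1 and Rgs9bp the points intermingle.

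The shift was shared by the libraries and not carried by 1 of them. For each library, the median over the 20 genes of log2(CPM + 1), relative to the mean of the control libraries, was 0.71, 1.25 and 0.96 in shRNA mCsnk2a1 and 0.12, -0.12 and -0.18 in shRNA Control. It was -0.08, 0.20 and -0.06 in pcDNA4c Control and -0.06, 0.70 and 0.66 in pcDNA4c mCsnk2a1, so libraries 2 and 3 of the Csnk2a1 vector came just below the knockdown libraries. Those vector libraries had 3551480 and 3287220 counts and vector library 1 had 2296160. At the lowest depth they would have 15358 and 16222 genes with a count, and vector library 1 18386. Knockdown library 1, with 20024 such genes, had a median of 0.71. The part of the number of genes detected in the rod shift was not tested. Over the 1000 most abundant genes the same quantity was 0.17, 0.38 and 0.33 in the knockdown libraries. Leaving out any 1 of the 6 libraries or changing the scaling, filter or tool left the median log2 difference at 0.73 to 1.14 for the activation genes and 0.88 to 1.19 for the shutoff and calcium genes. Thinning all libraries to the lowest total, chosen after seeing the depths, left 10 of 20 separated in the higher direction and 0 in the lower, beside 16.5% and 7.5% of the 1000 most abundant genes.

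How the libraries are scaled moved the size of the difference. With library size alone the median of all genes was -0.22, that of the 20 rod genes 0.87 and 19 of 20 were higher. In TPM, which divides by transcript length and fixes the sum of each library, the median log2 ratio was -0.31 over all genes and 0.63 over the rod genes, with 18 of 20 higher (Grk1 and Rgs9bp lower) and 7 of 20 separated, beside 3.20% of all genes. Gnb1, Pde6g, Cnga1, Gucy2e and Pdc, which were separated in CPM, overlapped in TPM. Transcripts under 200 nucleotides held 34.1% to 40.0% of TPM in knockdown and 29.4% to 33.8% in control rods. Rn7s1, Rn7s2, Rn7sk, Rpph1, Rny1 and Rny3 held 34.1% to 39.9% and 35.7% to 37.2%. The part of these RNAs in the TPM values was not tested. Relative to the median of all genes, the rod median was 1.09 with each of the 3 CPM scalings and 0.94 in TPM. The CPM scalings differ by a single factor per library, which this subtraction largely removes, so their equal values are not separate evidence. The split of separated genes, 1137 higher to 1353 lower with the trimmed mean of M-values, became 882 to 1628 with library size alone and 639 to 2043 in TPM. The 1000 most abundant genes split into 648 higher and 352 lower, 560 and 440, and 444 and 550 in the same order. Levels between genes compare only per length: among the cascade genes described here, Pdc (1103 TPM), Sag (921 TPM) and Gngt1 (523 TPM) were the highest in knockdown rods, and Pdc (983 TPM), Sag (591 TPM) and Gngt1 (303 TPM) in control rods.

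Among the transcription factors of photoreceptors, Crx was separated in CPM and Nrl and Nr2e3 were not. Nrl itself was 228, 282 and 816 CPM with the Csnk2a1 hairpin and 302, 356 and 357 CPM with the control hairpin, and its log2 difference of 0.39 (SE 0.58) turned to -0.41 without knockdown library 3. Nr2e3, a nuclear receptor gene whose product holds down cone genes, was 747, 594 and 641 CPM against 805, 304 and 584 CPM (0.23, SE 0.41; -0.10 without control library 2). Crx was 860, 1220 and 1093 CPM against 587, 730 and 556 CPM, with no overlap (0.76, SE 0.31). In TPM the groups overlapped for Crx, at 136, 210 and 182 TPM against 129, 163 and 116 TPM. Thrb, a thyroid hormone receptor gene known for its part in cones, was 92.8, 165 and 318 CPM against 39.9, 11.3 and 89.1 CPM (2.04, SE 0.76). Of the 19 listed photoreceptor transcription factors 15 were higher and 4 lower, with a median of 0.40. Of these factors 3 were separated upward and 1 downward, beside 5.61% and 6.68% of all genes. In TPM 9 were higher and 10 lower, 1 was separated each way, and the median was -0.002. Over all genes the TPM median was -0.31, with 3.20% separated upward and 10.2% downward.

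Lists of the outer and inner segment had medians from 0.23 to 0.68 in CPM and from -0.13 to 0.29 in TPM. Over all genes the medians were -0.03 in CPM and -0.31 in TPM. Prph2, the peripherin that shapes the disc rim, was 611, 826 and 672 CPM against 346, 401 and 225 CPM (log2 difference 1.12, SE 0.36), and Rp1, a microtubule protein of the axoneme, was 1973, 3106 and 2333 CPM against 1592, 1586 and 1268 CPM (0.74, SE 0.28). Those were the 2 separated members of 13 disc genes, of which 11 were higher (10 higher and 1 separated in TPM). Unc119, which carries transducin alpha to the outer segment, was 373, 337 and 350 CPM against 185, 202 and 140 CPM (1.01, SE 0.41). It was the 1 separated gene of 14 that handle lipidated proteins, of which 8 were higher and 6 lower with a median of 0.23, and in TPM 6 were higher and 8 lower with a median of -0.13. Among 18 pumps and channels of the inner segment, 13 were higher and 4 separated, but in TPM 9 were higher, 9 lower and 1 separated each way. Atp1b2, a sodium pump beta subunit, was 869, 1183 and 1040 CPM against 706, 601 and 559 CPM (0.73, SE 0.30), and Cacnb2, a calcium channel beta subunit, was 267, 212 and 140 CPM against 24.9, 92.9 and 55.6 CPM (1.84, SE 0.63). Intraflagellar transport and BBSome genes were mixed, with 15 higher, 12 lower and 1 of 27 separated, a share below the 5.61% background, and in TPM 0 were separated upward and 2 downward.

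Genes of the photoreceptor synapse were higher in 19 of 25 cases, with 6 separated upward, 0 downward and a median of 0.53, beside 5.61% and 6.68% of all genes. In TPM 14 were higher and 11 lower, with a median of 0.13. On that scale 2 were separated upward and 1 downward, beside 3.20% and 10.2% of all genes. Slc17a7, the vesicular glutamate transporter that fills rod synaptic vesicles, was 184, 362 and 222 CPM against 88.7, 152 and 80.0 CPM (1.26, SE 0.48). Rims2, an active-zone protein of the ribbon, was 174, 480 and 144 CPM against 49.8, 63.7 and 67.5 CPM (2.14, SE 0.78), and knockdown library 2 was the highest in both genes. Dag1, the dystroglycan that links the rod terminal to bipolar dendrites, overlapped, at 83.8, 21.8 and 278 CPM against 32.7, 46.4 and 36.3 CPM.

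Markers of some other retinal cells lay in the same direction as the rod genes. The rod markers summed to 14257 to 17286 CPM in knockdown and 7037 to 9248 CPM in control rods, above the sums of the other marker lists in both groups. Müller glia markers summed to 1323 to 2047 CPM and 633 to 1052 CPM, with 12 of 14 higher and 4 separated (in TPM 11 higher, and 1 separated each way). Slc1a3, the glial glutamate transporter, was 371, 213 and 346 CPM against 47.2, 141 and 54.5 CPM, and Apoe was 178, 246 and 412 CPM against 116, 135 and 53.9 CPM. Bipolar cell markers summed to 1114 to 2214 CPM and 636 to 824 CPM, with 10 of 15 higher, 5 separated upward and 2 downward (4 and 3 in TPM). Beside both lists, 5.61% of all genes were separated upward and 6.68% downward in CPM, and 3.20% and 10.2% in TPM. Trpm1, the light-response channel of ON bipolar cells, was 120, 338 and 112 CPM against 32.1, 8.34 and 40.8 CPM. None of these 14 glial and 15 bipolar markers was at 0 in either group, and the part of such cells in the rod result was not tested.

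Cone genes were low and mostly higher: 13 of 17, with 5 separated upward, 0 downward and a median of 1.18 (10 higher, 4 separated upward, 0 downward and 0.76 in TPM). For this and the next lists, all genes gave 5.61% separated upward and 6.68% downward (3.20% and 10.2% in TPM). Opn1sw, the short-wavelength cone opsin, was 12.4, 28.9 and 7.84 CPM in knockdown rods and had no count in any shRNA Control library. Cngb3, a cone channel subunit, was 27.0, 30.2 and 24.6 CPM against 11.4, 6.55 and 6.81 CPM. Mean TPM of Opn1sw and Cngb3 was 4.28 and 2.53 in knockdown rods. It was 4.99 and 3.36 in pcDNA4c Control rods and 0 and 0.342 with the Csnk2a1 vector. The cone markers as a list summed to 344 to 412 CPM against 238 to 325 CPM, and to 285 to 381 CPM in pcDNA4c Control rods. Microglia and macrophage markers lay the other way. They summed to 53.5 to 74.4 CPM in knockdown, 137 to 209 CPM in control and 2903 to 3531 CPM in pcDNA4c Control rods. Of 18 tested, 12 were lower and 3 higher, with 0 separated upward and 3 downward. Laptm5, a lysosomal membrane protein of blood cells, had no count in the knockdown libraries and 4.15, 94.1 and 45.4 CPM in the controls. It made up 94.1 of the 174 CPM of this list in control library 2. Cd68 had no count against 26.4, 7.74 and 2.27 CPM. Laptm5 did not follow the list sums, with means of 28.5 TPM in shRNA Control and 9.31 TPM in pcDNA4c Control. In the same order Cd68 was 8.12 and 10.3 TPM, Lyz2 2.18 and 110 TPM, and Ctss 2.61 and 57.9 TPM. Of the 20 listed markers, 8 were at 0 throughout the knockdown group and 5 throughout the control group. Amacrine and horizontal cell markers summed to 652 to 905 CPM against 355 to 600 CPM, although 0 of 12 were separated upward and 2 downward. Retinal ganglion cell markers (141 to 234 CPM against 77.8 to 172 CPM) and vascular and blood markers (216 to 324 CPM against 112 to 372 CPM) overlapped as sums.

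**Figure D3:**
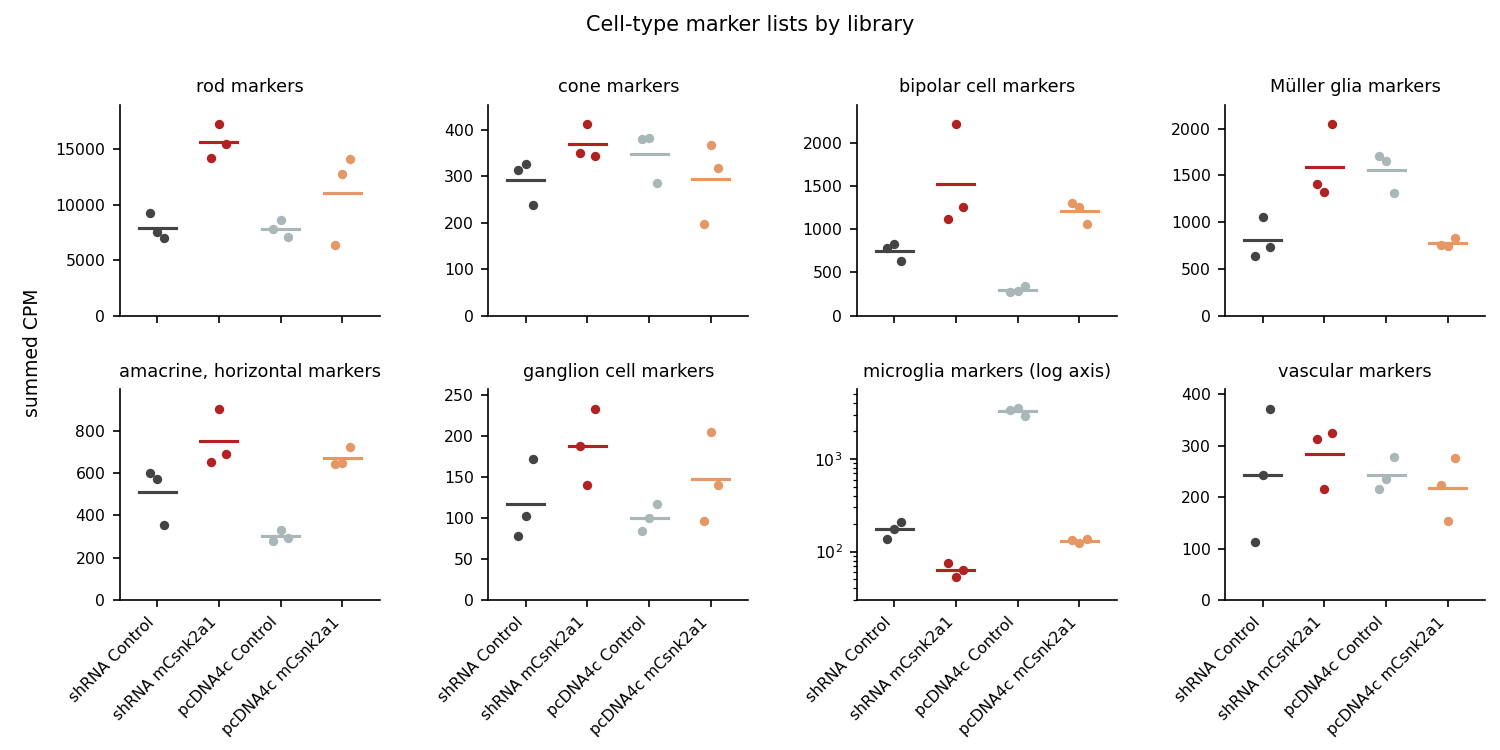
Summed CPM of 8 marker lists (y axes, linear from 0 except for microglia, which has a log axis) in the 4 groups; points are libraries and bars are group means. The knockdown rods hold the highest rod marker sums, 14257 to 17286 CPM, bipolar and Müller glia sums above those of the control shRNA, and the lowest microglia sums, 53.5 to 74.4 CPM.

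Outside the photoreceptor lists, genes of the RNA interference machinery included 3 separated members of 17, all upward, with 11 higher and a median of 0.33. In TPM the same counts were 3, 0 downward and 9 higher. Of all genes, 5.61% were separated upward and 6.68% downward in CPM, and 3.20% and 10.2% in TPM. Tnrc6a, the scaffold that recruits silencing factors to Argonaute, was 127, 218 and 263 CPM against 46.7, 61.3 and 25.0 CPM (log2 difference 2.19, SE 0.60, DESeq2 adjusted p = 0.0453). Ago3 was 450, 329 and 156 CPM against 67.9, 27.4 and 80.6 CPM (2.41, SE 0.95), and Ago1 was 61.2, 63.1 and 101 CPM against 30.6, 8.93 and 24.4 CPM (1.81, SE 0.72), both Argonautes that bind guide RNAs. Both groups carried a hairpin. In the 6 pcDNA4c libraries Tnrc6a was 96.9 to 369 CPM and Ago1 40.8 to 131 CPM, which is above the control shRNA libraries and overlaps the knockdown libraries, and Ago3 was 6.12 to 164 CPM. In the interferon list B2m, the light chain of MHC class I, was 26.3, 48.3 and 103 CPM against 8.81, 0 and 5.67 CPM. Its mean was 37.9 TPM in knockdown and 3.98 TPM in control shRNA rods. With the Csnk2a1 vector it was 11.5 TPM, and in pcDNA4c Control rods 44.2 TPM. On that list 12 of 23 members were higher and 11 lower with a median of 0.09. Of those 23, 4 were separated upward and 0 downward in CPM, and 3 and 1 in TPM, where 9 were higher and 14 lower.

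Several housekeeping and stress lists had medians near that of all genes. In TPM, where all genes had a median of -0.31, these lists lay between -0.29 and -0.18. The unfolded protein and integrated stress list had 11 higher and 13 lower of 24, 0 separated upward and 2 downward, and a median of -0.08. The p53 and apoptosis list had 13 higher and 14 lower of 27 and a median of 0.00, with Tnfrsf10b, a death receptor, at 4.51, 17.8 and 11.4 CPM against 54.4, 46.4 and 124 CPM (-2.73, SE 1.04). Proteasome subunits had a median of 0.14 and glycolysis genes of 0.10, with Eno1, enolase, at 880, 681 and 1014 CPM against 382, 392 and 602 CPM (0.90, SE 0.34) and Gpi1, an isomerase of the same path, at 152, 93.5 and 133 CPM against 247, 230 and 204 CPM (-0.85, SE 0.48). Of 32 known CK2 substrates and CK2-dependent chaperones 18 were higher and 14 lower, with 2 separated upward and 1 downward, beside 5.61% and 6.68% of all genes. In TPM 10 were higher and 22 lower, with 1 separated upward and 5 downward, beside 3.20% and 10.2% of all genes. Akt1, the kinase that is the downward one, was 18.4, 32.0 and 8.56 CPM against 60.7, 33.9 and 85.7 CPM (-1.61, SE 0.85).

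Higher medians were found for immediate early genes and histones. Separated counts in these lists stand beside 5.61% upward and 6.68% downward of all genes, or 3.20% and 10.2% in TPM. Of 23 immediate early genes 17 were higher, 5 separated upward and 1 downward, with a median of 0.98. In TPM 17 were higher too, but 1 was separated upward and 2 downward, and the median was 0.34. Fosb, a member of the AP-1 transcription factor family, was 74.0, 52.9 and 62.4 CPM against 2.07, 11.3 and 0 CPM (3.81, SE 1.74). Of 25 replication-dependent histones 20 were higher and 4 separated upward (in TPM 15 higher, 2 separated upward and 1 downward). The linker histone genes Hist1h1c and Hist1h1e were the abundant ones: Hist1h1c was 1018, 588 and 704 CPM against 295, 386 and 356 CPM (1.16, SE 0.37). Of 77 mitochondrial ribosomal proteins 47 were higher, 8 separated upward and 2 downward, and SR proteins and hnRNPs, the splicing factors, had 24 of 31 higher and 4 separated, with Srsf10 at 77.0, 94.2 and 168 CPM against 55.0, 31.0 and 36.3 CPM. In TPM the mitochondrial ribosomal proteins were 40 higher and 37 lower, with 4 separated upward and 3 downward, and the splicing factors 17 higher and 14 lower, with 2 separated each way. Of the 39 lists, 34 had a median above that of all genes tested in CPM and the same 34 had it in TPM.

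**Figure D4:**
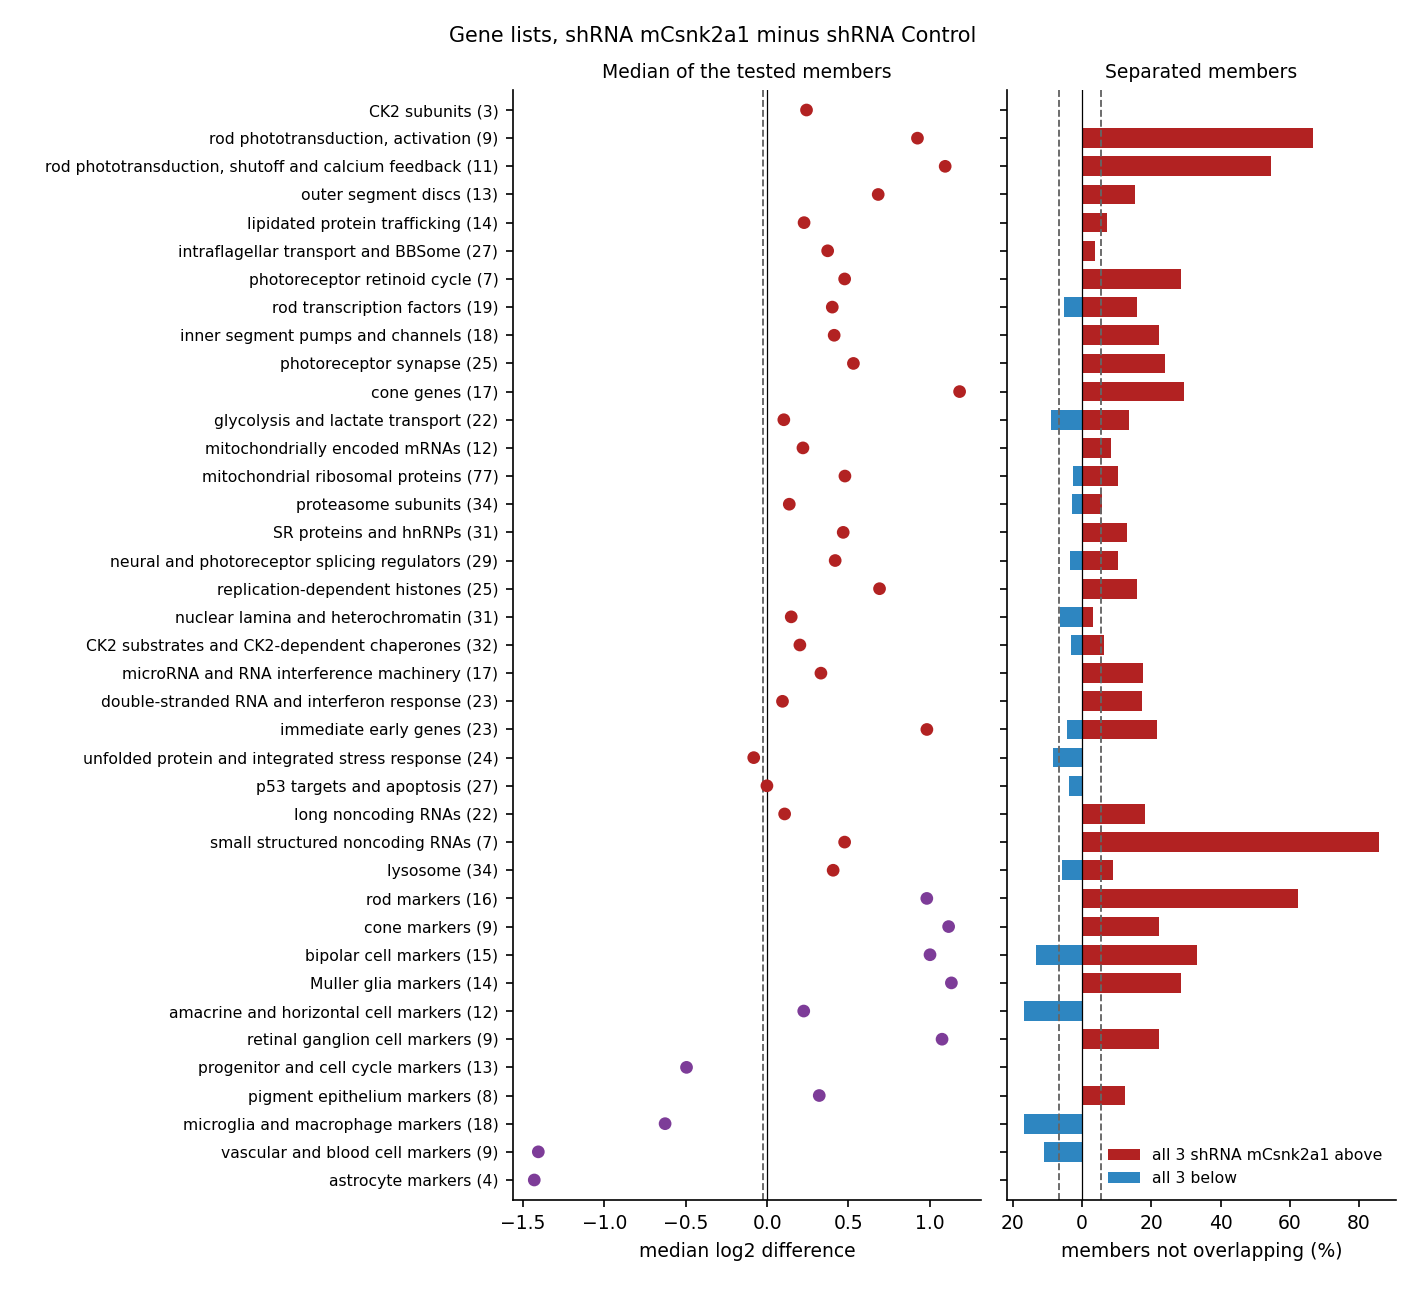
Median log2 difference (left) and share of tested members whose groups do not overlap (right; higher to the right, lower to the left) for 39 gene lists, with the number of tested members in brackets; marker lists are in purple and dashed lines are all genes tested (-0.03, 5.61% and 6.68%). The 2 rod phototransduction lists, with 6 of 9 and 6 of 11 members separated, stand beside the small structured RNAs, with 6 of 7.

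Structured and mitochondrial RNAs were higher by small, even amounts. The mitochondrial ribosomal RNAs mt-Rnr1 and mt-Rnr2 had log2 differences of 0.67 (SE 0.12, edgeR adjusted p = 0.352 and 0.0377 with limma voom) and 0.48 (SE 0.13), with mt-Rnr1 at 52073, 52334 and 58473 CPM against 32988, 33306 and 36211 CPM. All 7 tested small structured RNAs were higher and 6 were separated. Among them were Rn7s1 and Rn7s2, copies of the 7SL RNA of the signal recognition particle that were listed with the same values and share their reads (31503, 32640 and 36632 CPM against 24136, 24785 and 24256 CPM), Rpph1, the RNA of RNase P (4332, 4247 and 4662 CPM against 3124, 2882 and 3272 CPM), and the Y RNA Rny3. In TPM 0 of the 7 were separated upward, 1 was separated downward and 6 were still higher. Messenger RNAs of the mitochondrial genome did not share this: 1 of 12 was separated upward with a median of 0.22, and in TPM 11 of 12 were lower.

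Long noncoding RNAs lay lower as a class. Of 2993 tested lncRNA genes 59 were separated upward (1.97%) and 291 downward (9.72%), with a median of -0.51, and they held 6.56% to 7.87% of the counts in knockdown and 9.02% to 9.85% in control rods. Malat1, the nuclear speckle RNA, went against the class at 7039, 13516 and 11075 CPM against 6560, 6924 and 4940 CPM, and so did Meg3, the imprinted lncRNA, at 257, 225 and 348 CPM against 97.5, 23.8 and 95.3 CPM. Xist, made from the silenced X chromosome of female cells, was 84.9, 287 and 137 CPM against 436, 287 and 327 CPM. With the same trimmed-mean scaling protein-coding genes were even, with 6.07% separated upward and 5.88% downward. The shares of these 2 classes were not counted with library size alone or in TPM. There all genes split into 882 higher to 1628 lower and 639 to 2043.

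A class noticed only after its values were seen lay lower too. Genes of the vomeronasal, olfactory and trace amine receptors, which sense odours and pheromones in the nose, filled 6 of the 15 named lower genes of high level and were then counted as a family. Of 804 tested, 7 were separated upward (0.871%) and 109 downward (13.6%), with a median of -0.57. Vmn1r13 was 63.9, 48.6 and 38.9 CPM against 231, 255 and 210 CPM (log2 difference -2.20, SE 0.58), and Vmn1r55 was 492, 557 and 424 CPM against 773, 915 and 836 CPM (-0.78, SE 0.34). Their mean TPM was 4.19 and 16.6 in knockdown and 25.5 and 37.3 in control shRNA rods. It was 4.72 and 21.1 with the Csnk2a1 vector and 6.55 and 22.3 in pcDNA4c Control rods. Summed over 1486 genes the family held 27794, 18509 and 21249 CPM in knockdown, 28851, 30895 and 34424 CPM in control rods, 34701, 19466 and 15004 CPM with the Csnk2a1 vector and 26478, 26090 and 32872 CPM in pcDNA4c Control rods. Knockdown library 1 came close to the controls. Such receptors form large families of similar sequence, so counts may be shared between members. The knockdown libraries were also the deeper ones with fewer genes detected at equal depth, and the part of depth in these levels was not tested.

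**Figure D5:**
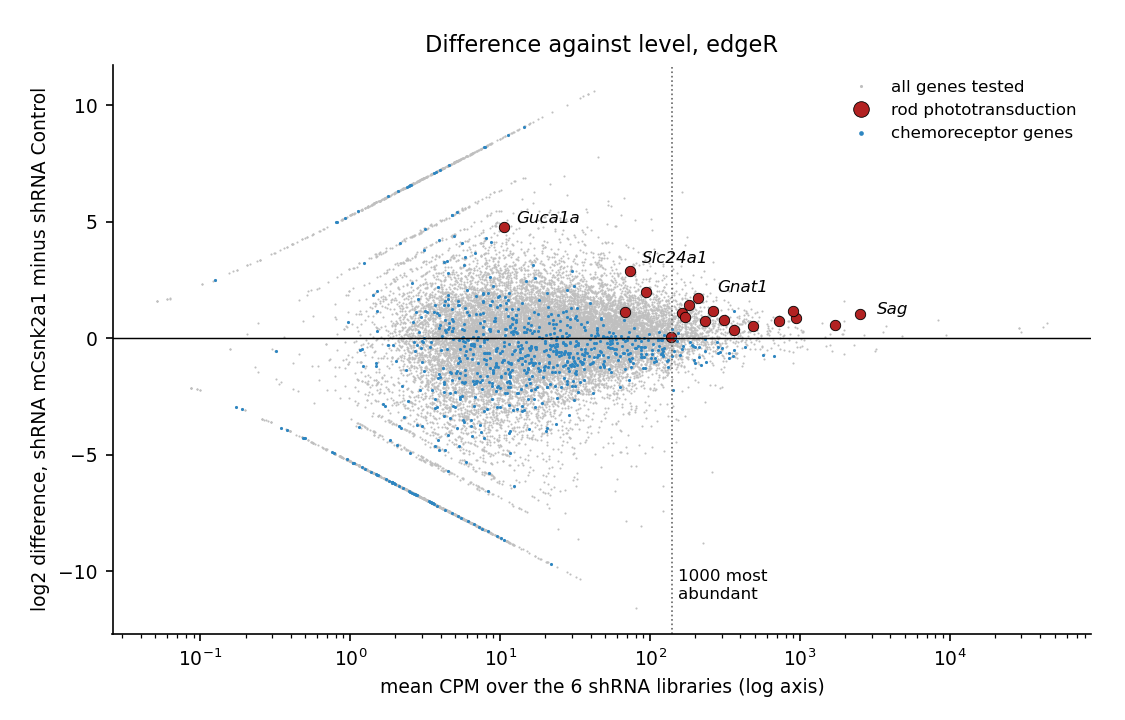
Log2 difference between the groups from edgeR (y axis) against mean CPM over the 6 shRNA libraries (x axis, log scale) for the genes tested, with 19 rod phototransduction genes in red and chemoreceptor genes in blue. The red points lie at or above 0 over the whole range of level, from Guca1a to Sag, and the blue points lie mostly below 0.

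Among abundant genes outside the lists, Rpl26, a protein of the large ribosomal subunit with processed copies in the genome that may share its reads, was 408, 411 and 386 CPM against 80.9, 36.3 and 44.8 CPM (log2 difference 2.89, SE 0.67, adjusted p = 0.00192 with DESeq2). It was 192 to 301 CPM with the Csnk2a1 vector and 1.66 to 21.6 CPM in pcDNA4c Control rods. Tma7, a small translation-associated protein, was 282, 396 and 328 CPM against 105, 128 and 113 CPM (1.54, SE 0.43), and Cdk5rap2, a centrosomal protein, was 183, 374 and 196 CPM against 45.6, 31.6 and 19.3 CPM (2.96, SE 0.83). Dyrk2, a dual-specificity kinase, and Wdfy3, an autophagy adaptor, were highest in knockdown library 3 (972 and 647 CPM) and separated from the controls. Aspm, a spindle protein, was 27.0, 37.5 and 899 CPM against 3.63, 0 and 8.51 CPM, a level set by that same library.

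Lower in knockdown than in control shRNA rods were Chga and Chgb, the chromogranins of dense-core secretory granules. Chga was 70.2, 117 and 108 CPM against 211, 349 and 211 CPM (log2 difference -1.39, SE 0.55), and Chgb was 258, 308 and 236 CPM against 431, 429 and 511 CPM (-0.77, SE 0.37). Pcdh15, a protocadherin of hair cells and photoreceptors, was 328, 203 and 223 CPM against 774, 460 and 484 CPM (-1.19, SE 0.43). Rock1, a kinase of the actin cytoskeleton, was 203, 153 and 152 CPM against 389, 348 and 268 CPM (-0.99, SE 0.40). Smarce1, a subunit of the SWI/SNF chromatin remodeller, was 143, 18.5 and 32.4 CPM against 282, 185 and 176 CPM (-1.73, SE 0.70). In TPM, all pcDNA4c libraries lay below the control shRNA libraries for Chga, Chgb and Smarce1. Chga was 16.9 to 30.7 TPM in knockdown, 67.7 to 119 TPM in control shRNA and 13.1 to 40.5 TPM in pcDNA4c libraries. In that order Chgb was 39.1 to 52.4, 94.0 to 106 and 35.8 to 55.8 TPM. Smarce1 was 6.12 to 43.6, 71.0 to 119 and 7.03 to 48.4 TPM. For Pcdh15 and Rock1 the pcDNA4c libraries overlapped the control shRNA libraries in TPM. Hmcn1, a matrix protein, and Tbc1d17, a Rab regulator, had larger differences (-5.75 and -4.45) that rested on few control libraries: Hmcn1 was 925, 17.9 and 570 CPM and Tbc1d17 was 765, 33.3 and 60.1 CPM in the controls. DESeq2 called both.

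Some genes had no count in a whole group once the estimates were rounded. Of the tested genes, 954 had none in the 3 knockdown libraries and 444 none in the 3 control libraries, although the knockdown libraries were deeper. An estimate above 0 that rounds to 0 stood behind 10 of the 954 and 11 of the 444. With at least 10 counts in every library of the other group, 55 genes had a rounded count of 0 throughout knockdown and 32 throughout control rods. Dab2, an endocytic adaptor, had no count in knockdown and 64.8, 107 and 31.2 CPM in control rods. That makes it at least 195-fold lower against a floor of 3 counts over the group, and its edgeR adjusted p was 0.0983, the lowest of all genes. DESeq2 called it (1.93e-08), as did limma voom (0.0377) and edgeR with the replicate block (0.000781). Cfap70, an axonemal protein, had 46.7, 32.7 and 32.9 CPM in control rods and an estimate that rounds to 0 in knockdown library 1 (0.0408 TPM), at least 110-fold lower, and Afap1l2 had 5.19, 33.9 and 441 CPM, most of it in control library 3. In the other direction Tufm, the mitochondrial elongation factor, had 21.4, 47.4 and 18.2 CPM with the Csnk2a1 hairpin and none with the control hairpin (at least 53.8-fold higher), and Vat1, a vesicle amine transport protein, had 6.01, 41.2 and 33.2 CPM (at least 49.9-fold higher). Slc17a6, the glutamate transporter of ganglion cells, had 45.1, 7.39 and 41.0 CPM and no control count. With 50 to 100 cells a library, a count of 0 says little about the cells themselves.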

How the data were processed

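RNA of the 6 shRNA libraries was read together with the 6 pcDNA4c libraries of the same tables. The authors deposited estimated counts per gene, TPM per transcript and a table of scaled CPM signal for 11 of the 12 libraries, and kallisto 0.45.0, edgeR 3.28 and the build mm10 are named in the submitters' processing notes without their roles. The SMARTer Stranded Total RNA-Seq kit was used, per the labels' protocols, and amplified reads are not independent molecules. Columns without a sample numbered 0.

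Each deposited estimated count was rounded to an integer, and 20267 genes passed edgeR's filterByExpr at a minimum count of 10. Scaling used the trimmed mean of M-values. Genes were tested with edgeR 4.0.16 (R 4.3.3, quasi-likelihood, all 12 libraries in 4 groups, Benjamini-Hochberg adjusted p of 0.05). SE is the log2 difference over the square root of F. Symbols came from the deposited CPM signal table. The deposited TPM were summed per gene and compared as the log2 ratio of the group means, with 1 added to each mean. A single high library can weigh heavily in such a mean. Separation in TPM was read from the values without the added 1. Library medians used log2(CPM + 1). Adding 1 understates the change of low genes. Alternatives used DESeq2 1.42.0 and limma 3.58.1. The fitting script was tested on simulated data.

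Genes named were the CK2 subunits, the rod phototransduction genes with Nrl, Crx and Nr2e3, up to 4 members of every other list with the smallest p, the 15 higher and 15 lower separated genes of smallest p among the 1000 most abundant, and 5 genes absent from each group. Some genes that the rule names are not reported here. The members and lists were chosen with earlier results of these data known. The labels do not say whether same-numbered libraries of the groups belong together, and the numbers were not taken as pairs. Their correlations of deviations were -0.012, -0.011 and -0.0023, which cannot exclude a pairing, since libraries of so few cells varied widely. Precision is limited by 50 to 100 cells a library.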

Additional observations from a re-analysis of the deposited data

How the results depend on the processing

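The number of genes past the adjusted threshold, 0 in the edgeR test, depended on the tool and filter. It was 93 without the filter on low counts, 184 with DESeq2 and 2 with limma voom, and 0 to 2 when 1 library was left out (1 without control library 2 and 2 without control library 3). With the replicate number as a block it was 20, although the labels do not say whether the numbers pair the libraries. The cause was not tested. Separated genes in the higher direction numbered 1807 to 2300 and in the lower direction 2228 to 2791 with 1 library left out, where fewer libraries have to separate. With at least 50 counts in 3 libraries, 813 were higher and 720 lower of 11135 genes tested, which turns the balance of 1137 to 1353, as did leaving out knockdown library 3 (2300 to 2228). TPM in place of CPM, chosen after seeing the data, gave 639 higher and 2043 lower, and medians of 0.53 for the activation genes and 0.64 for the shutoff and calcium genes. Of the 191 genes chosen by the rule, 19 changed sign in at least 1 alternative and 29 passed the threshold in at least 1. Among those described, Nrl ranged from -0.41 to 0.71, Nr2e3 from -0.10 to 0.56 and Grk1 from -0.052 to 0.53 with 1 library left out. Rgs9bp ranged from -0.29 to 0.44 in the same way and was -0.038 with the size factors of DESeq2, -0.037 with DESeq2 itself, -0.15 with library size alone, -0.024 with at least 50 counts and -0.017 with the 6 shRNA libraries alone. Of the 39 lists, 14 had a median that changed sign in at least 1 alternative, and the medians of both rod phototransduction lists stayed above 0 in all 16 fits and in TPM.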
